A study of Mus musculus with 12 samples.

Results

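The metallothioneins Mt1 and Mt2, the zinc-sensing transcription factor Mtf1 and the zinc transporters Slc30a1, Slc39a1 and Slc39a14 were followed in 2 cell types of mice with renal ischemia-reperfusion injury (IRI). Members were the rows of each count table whose gene symbol was one of these 6 names. All 6 were listed among 50433 genes in renal tubular epithelial cells (TECs) and among 50434 genes in neutrophils (PMN). Wildtype mice, per the methods male C57BL/6J animals of 8 to 12 weeks, had both renal pedicles clamped for a limited time, and cells were taken 24 hours later. One group of each cell type came from mice given glutamine, which the methods describe as the dipeptide N(2)-L-alanyl-L-glutamine injected intravenously, and the other from mice given vehicle, described as physiologic saline. The study's text and its supplementary legend place the injection at different times after reperfusion. No sham-operated or uninjured mice were among these libraries, so that every library carries the injury. The comparison asks whether glutamine altered the transcripts of the injured epithelium and of circulating neutrophils, with 3 glutamine and 3 vehicle libraries per cell type. TECs had been sorted from kidney as CD45-negative, Prominin-1-positive cells, and PMN came from peripheral blood. In these bulk samples fewer cells of a type and less RNA per cell cannot be told apart. The labels do not state whether each library came from a separate mouse, so p-values measure the spread between these libraries.

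Zinc is a structural and catalytic part of many proteins, and its free concentration in the cell is kept low. Mt1 and Mt2 encode small cysteine-rich proteins that bind zinc and copper and can react with oxidants. Mtf1 senses zinc through its zinc fingers and binds metal response elements in the promoters of Mt1, Mt2 and Slc30a1. Slc30a1 exports zinc across the plasma membrane, Slc39a1 imports it, and Slc39a14 imports zinc, iron and manganese and is known as an acute-phase gene. In the kidney the proximal tubule takes up filtered metal bound to metallothionein, and both metallothioneins are known to respond to metals, glucocorticoids and inflammatory cytokines.

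Mt1 and Mt2 lie side by side on the plus strand of mouse chromosome 8 (GRCm38, GENCODE M21). Mt2 spans chr8:94172664-94173568, Mt1 spans chr8:94179082-94180327, and 5514 bases separate them. The other members are single genes on other chromosomes. Mtf1 is at chr4:124802104-124849800, Slc30a1 at chr1:191906767-191913247, Slc39a1 at chr3:90248172-90253612, all on the plus strand, and Slc39a14 at chr14:70303469-70351425 on the minus strand. The coding sequences of Mt1 and Mt2 are shown because reads of 50 bases had to be assigned to one or the other. They are written from the start codon to the last codon before the stop, as GENCODE transcripts, with the bases that differ between them in capitals.
Mt1: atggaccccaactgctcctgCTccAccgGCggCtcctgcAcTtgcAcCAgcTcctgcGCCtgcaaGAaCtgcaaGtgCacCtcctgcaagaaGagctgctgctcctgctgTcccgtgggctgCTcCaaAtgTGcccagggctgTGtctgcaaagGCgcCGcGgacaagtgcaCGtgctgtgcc
Mt2: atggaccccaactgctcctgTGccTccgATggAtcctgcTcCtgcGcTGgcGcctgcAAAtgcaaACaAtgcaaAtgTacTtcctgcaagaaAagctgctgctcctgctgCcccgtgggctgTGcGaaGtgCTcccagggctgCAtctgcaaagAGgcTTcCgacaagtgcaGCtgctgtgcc
Each holds 61 codons, of which 20 encode cysteine. The sequences differ at 38 of 183 bases and are 79.2% identical, and the longest run without a difference is 20 bases. No window of 50 bases, on either strand, was common to any transcript of Mt1 and any transcript of Mt2, so that an error-free read in these transcripts fits only 1 of these 2 genes. Windows shared with other genes were 0% for Mt1, 45.8% for Mt2 (all with the overlapping predicted gene Gm45774), 7.55% for Mtf1 (with 1110065P20Rik), 8.01% for Slc30a1 (with 1700034H15Rik), 21.8% for Slc39a1 (with its pseudogene Slc39a1-ps) and 0.196% for Slc39a14. Gm45774 was given 3 to 16 counts per TEC library and 0 to 690 counts per PMN library, and Slc39a1-ps was given 0 counts in all 12 libraries. 1110065P20Rik was given 40 to 183 counts per TEC library and 0 to 374 per PMN library, and 1700034H15Rik 0 to 33 and 2 to 14. The levels of Mt2 in PMN and of Mtf1 and Slc30a1 are therefore uncertain by the way reads shared with these partners were divided.

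The upstream sequences of the 3 members known as Mtf1 targets are shown with the core of the metal response element in capitals. They run from 250 to 15 bases before the start site (RefSeq, GRCm38.p6, plus strand), and the stretch nearer to the start was left out because other transcripts of Slc30a1 begin there. The core was searched as TGCACNC or TGCGCNC on both strands.
Mt1: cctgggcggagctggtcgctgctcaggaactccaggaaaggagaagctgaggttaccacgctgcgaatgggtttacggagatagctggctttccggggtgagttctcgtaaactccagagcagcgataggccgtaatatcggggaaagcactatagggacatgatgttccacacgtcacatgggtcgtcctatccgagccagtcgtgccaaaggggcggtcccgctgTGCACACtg
Mt2: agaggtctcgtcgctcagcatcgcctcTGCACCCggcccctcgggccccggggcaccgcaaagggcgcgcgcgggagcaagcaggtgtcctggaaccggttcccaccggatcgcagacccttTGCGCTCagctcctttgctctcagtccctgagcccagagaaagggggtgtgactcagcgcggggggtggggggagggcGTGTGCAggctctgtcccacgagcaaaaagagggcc
Slc30a1: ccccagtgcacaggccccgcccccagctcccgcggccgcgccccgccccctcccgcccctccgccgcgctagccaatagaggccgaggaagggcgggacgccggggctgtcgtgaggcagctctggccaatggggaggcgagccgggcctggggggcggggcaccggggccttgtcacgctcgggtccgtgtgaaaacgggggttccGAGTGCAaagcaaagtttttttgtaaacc
These windows are chr8:94178839-94179074 for Mt1, chr8:94172368-94172603 for Mt2 and chr1:191906531-191906766 for Slc30a1. The Mt2 window held 3 matches, beginning 223, 128 and 50 bases before the start, whereas Mt1 held 1 match at 23 bases and Slc30a1 held 1 match at 43 bases. At least 1 match was present in 20.1% of 32851 windows of the same length, and at least 3 matches were present in 1.12%. The corresponding windows of Mtf1 and Slc39a1 held 0 matches. A match describes the letters and is no evidence of binding, and both the number and the absence of matches concern this window alone. The coding sequence begins at chr8:94179311 for Mt1 and at chr8:94172848 for Mt2. The stretch between each window and these positions was not searched, and no other start site was used. The numbers of matches therefore do not rank these genes by their metal response elements.

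TEC libraries held 5397370 to 10223461 counts and PMN libraries 20225246 to 21878446. Counts of different TEC libraries correlated across genes at 0.942 to 0.968, and those of different PMN libraries at 0.655 to 0.737, so that PMN libraries differed far more from each other. The neutrophil list, which includes S100a8, S100a9 and Csf3r, summed to between 22035 and 71261 CPM, the count per 1000000 counts of the library as scaled by edgeR, in PMN and to 102 to 254 CPM in TECs. The proximal tubule list, which includes Lrp2 and Slc34a1, summed to 3745 to 5995 CPM in TECs and to between 19.97 and 87.7 CPM in PMN. TECs also held the thick ascending limb list, which includes Umod, at 1041 to 2274 CPM. An erythroid list summed to 1596 CPM in TEC vehicle replicate 5 and 2581 CPM in TEC glutamine replicate 2. In the other TEC libraries it summed to 306 to 627 CPM. In PMN, vehicle replicate 2 stood apart by an endothelial list (Pecam1, Cdh5, Kdr, Emcn) of 1440 CPM against 2.66 to 58.9 CPM elsewhere, and vehicle replicate 1 by a thick ascending limb list (with Slc12a1, Cldn16 and Kcnj1 beside Umod) of 1026 CPM against 1.51 to 33.5 CPM.

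In TECs none of the 6 members passed the threshold. Mt1 and Mt2 had the higher means with glutamine, Mtf1 and the 3 transporters the lower, and for every member the libraries of both groups overlapped. All 6 were abundant enough to be tested among 14734 genes. Genes were called at a Benjamini-Hochberg adjusted p below 0.05 in edgeR's quasi-likelihood test, which called 0 of the 14734 genes (0%). DESeq2's Wald test called 1.93% of the genes it adjusted and 0 of the 6 members. At an unadjusted p below 0.05, 1878 genes and 0 of the 6 members passed in edgeR.

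**Figure D1:**
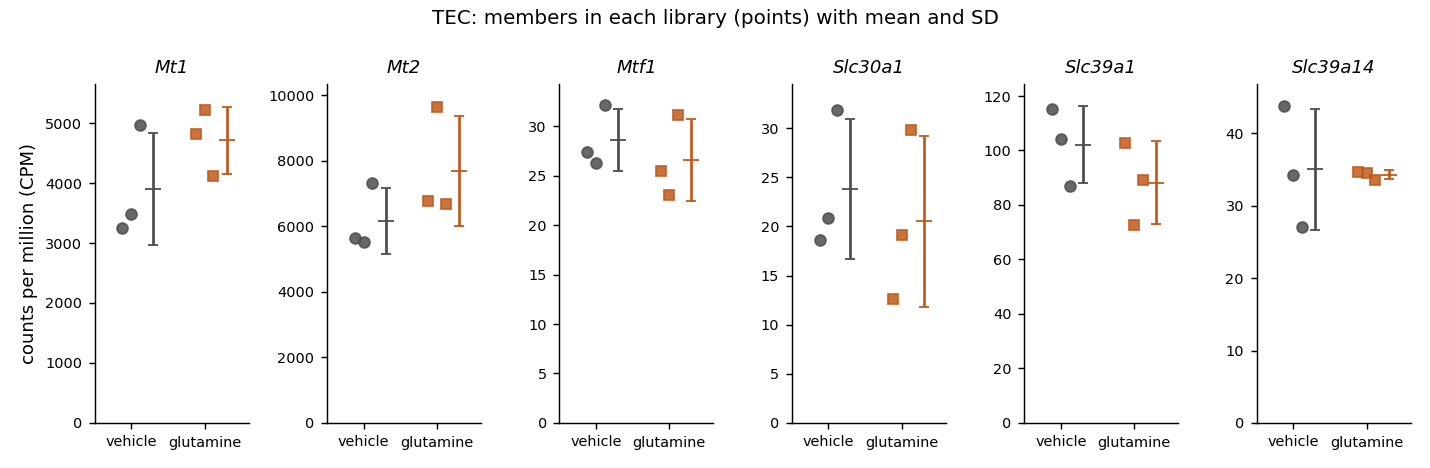
Scaled CPM (vertical axes, each starting at 0) of the 6 members in TEC libraries of vehicle-treated (circles) and glutamine-treated mice (squares), with bars for the mean and SD of 3 libraries. The groups overlap for every member, and the glutamine libraries of Slc39a14 lie close together, between 33.6 and 34.7 CPM.

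Mt1 was at 3250, 3487 and 4972 CPM in vehicle replicates 3, 4 and 5. In glutamine replicates 1, 2 and 3 it was at 4821, 5214 and 4113 CPM. Vehicle replicate 5 was thus within the range of the glutamine libraries, and the other vehicle libraries lay below all of them. The log2 fold change of glutamine against vehicle was 0.27 ± 0.22 (SE; edgeR adjusted p = 0.634), with a 95% interval from -0.21 to 0.76.

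Mt2 was at 5652, 5527 and 7318 CPM with vehicle and at 6777, 9632 and 6681 CPM with glutamine. The order of the libraries resembled that of Mt1, since vehicle replicate 5 again reached the glutamine range and glutamine replicate 2 was the highest of all. The log2 fold change was 0.32 ± 0.22 (edgeR adjusted p = 0.576), with a 95% interval from -0.17 to 0.81. It was 0.12 without glutamine replicate 2, and that of Mt1 ranged from 0.15 without vehicle replicate 3 to 0.48 without vehicle replicate 5. These intervals leave room for a modest rise of either metallothionein as well as for a small fall. Glutamine replicate 2, highest for both, was also the shallowest library with 5397370 counts. It and vehicle replicate 5 were also the TEC libraries with the high erythroid list. The part of this list in the metallothionein values was not tested.

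By count, Mt2 ranked between place 7 and place 13 and Mt1 between place 11 and place 21 of all genes in the TEC libraries. The pair took 0.975% to 1.21% of all counts with vehicle and 1.01% to 1.37% with glutamine.

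Mtf1, the regulator, was at 27.4, 26.2 and 32.2 CPM with vehicle and at 25.5, 23.1 and 31.1 CPM with glutamine. In each group 1 library, vehicle replicate 5 and glutamine replicate 3, was above the other pair, and the groups overlapped over most of their range. The log2 fold change was -0.10 ± 0.24 (edgeR adjusted p = 0.885), and it ranged from -0.24 without glutamine replicate 3 to -0.015 without vehicle replicate 5.

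The exporter Slc30a1 was at 18.6, 20.9 and 31.9 CPM with vehicle and at 12.6, 19.1 and 29.8 CPM with glutamine. Spread within each group exceeded the difference of the means, and the log2 fold change was -0.21 ± 0.35 (edgeR adjusted p = 0.828). Its direction turned without vehicle replicate 5 (0.05) and without glutamine replicate 1 (0.05).

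The importer Slc39a1 was at 115, 104 and 87.0 CPM with vehicle and at 103, 72.5 and 89.1 CPM with glutamine. Its lowest value was in glutamine replicate 2, where both metallothioneins were highest, and the log2 fold change was -0.21 ± 0.21 (edgeR adjusted p = 0.703). With single libraries left out it ranged from -0.34 (without glutamine replicate 1) to -0.093 (without glutamine replicate 2). Slc39a14 was at 43.8, 34.3 and 27.1 CPM with vehicle and at 34.7, 34.5 and 33.6 CPM with glutamine. All its glutamine values fell inside the vehicle range, and the log2 fold change was -0.03 ± 0.24 (edgeR adjusted p = 0.966). Without vehicle replicate 3 it was 0.15.

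In PMN none of the 5 members that passed the expression filter passed the threshold, and again the groups of every member overlapped. Mt1 and Mt2 had the lower means with glutamine. edgeR tested 10130 genes and called 0 of them (0%), while 346 genes and 0 of the 5 members had an unadjusted p below 0.05. DESeq2 called 2.80% of the genes it adjusted and 0 of the 5 members to which it gave an adjusted p. Standard errors were 0.33 for Mt1 and 0.39 for Slc39a1, against 0.22 and 0.21 in TECs, and reached 2.38 for Slc39a14.

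**Figure D2:**
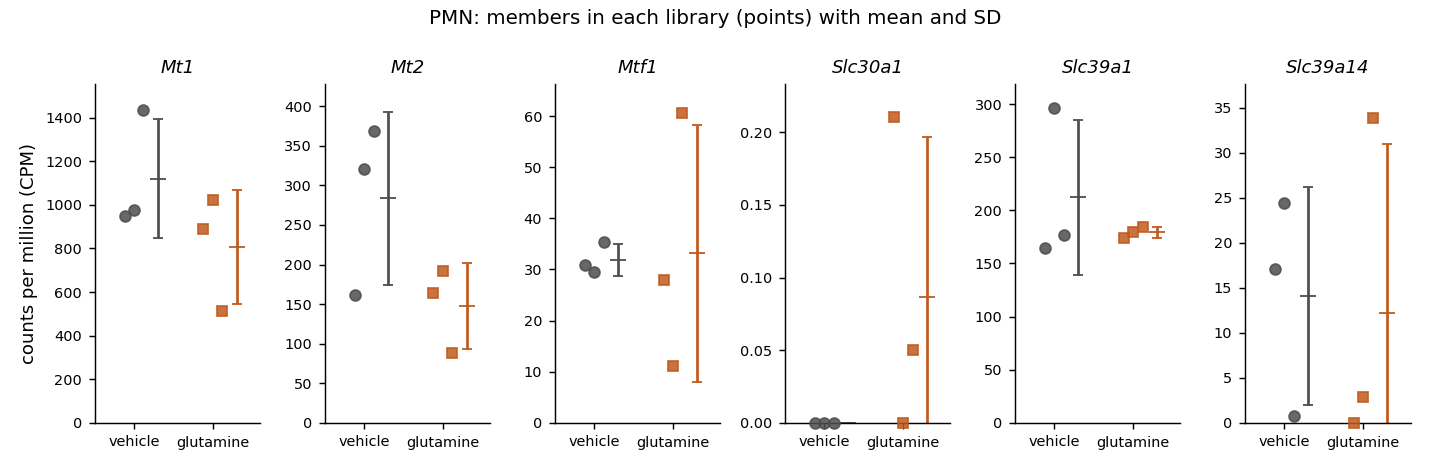
Scaled CPM (vertical axes, each starting at 0) of the 6 members in PMN libraries of vehicle-treated (circles) and glutamine-treated mice (squares), with bars for the mean and SD of 3 libraries, cut off at 0. Slc30a1 stays at or below 0.211 CPM, and Slc39a14 runs from 0 to 33.9 CPM within the glutamine group.

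Mt1 was at 947, 977 and 1435 CPM in vehicle replicates 1 to 3 and at 887, 1020 and 513 CPM in glutamine replicates 1 to 3. The groups overlapped, and their means differed mainly through 1 high vehicle library and 1 low glutamine library. The other 4 values lay between 887 and 1020 CPM. The log2 fold change was -0.47 ± 0.33 (edgeR adjusted p = 0.99996, 95% interval from -1.25 to 0.31), and it was -0.24 without glutamine replicate 3, -0.26 without vehicle replicate 3 and -0.72 without glutamine replicate 2.

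Mt2 was at 161, 321 and 369 CPM with vehicle and at 164, 192 and 87.7 CPM with glutamine. A pair of vehicle libraries stood above all glutamine libraries, and vehicle replicate 1 lay among them. The log2 fold change of -0.94 ± 0.49 had an unadjusted p of 0.0958 and an adjusted p of 0.99996 in edgeR, and its 95% interval ran from -2.10 to 0.22. It lay between -1.24 and -0.68 under all 12 other settings, with adjusted p from 0.580 to 0.99999. In the glutamine group, replicate 3 had the lowest Mt1, the lowest Mt2 and the lowest sum of the neutrophil list (22035 CPM). It also had the highest sum of the macrophage list (Adgre1, Csf1r, Cd68, C1qa, C1qb, Lyz2), at 11244 CPM against 5194 to 8921 CPM elsewhere. These sums were not split by gene and do not measure a share of cells. The part of these lists in the metallothionein values was not tested.

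Mtf1 was at 30.9, 29.4 and 35.4 CPM with vehicle and at 28.0, 11.1 and 60.6 CPM with glutamine. The glutamine libraries alone spanned the whole range, and the log2 fold change of 0.06 ± 1.09 (edgeR adjusted p = 0.99996) changed sign in 7 of 12 other settings.

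Slc30a1 did not pass the expression filter of edgeR. It had 0 counts in each vehicle library and 4, 0 and 1 counts in the glutamine libraries. A count of 0 allows up to 3 counts, which at these depths is 0.137 to 0.148 CPM of the unscaled library. Without the filter its edgeR adjusted p was 0.590, and no fold is given because the values lie near this limit.

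Slc39a1 was at 164, 296 and 177 CPM with vehicle and at 174, 180 and 184 CPM with glutamine. Vehicle replicate 2 stood alone, and the other 5 libraries lay within 164 to 184 CPM. The log2 fold change was -0.24 ± 0.39 (edgeR adjusted p = 0.99996), and without vehicle replicate 2, the library with the high endothelial list, it was 0.07. Slc39a14 was at 17.1, 24.4 and 0.761 CPM with vehicle and at 0, 2.83 and 33.9 CPM with glutamine, which is presence in some libraries and near absence in others of the same group. Its log2 fold change of -0.20 ± 2.38 (edgeR adjusted p = 0.99996) had a 95% interval from -5.86 to 5.45, and it was 0.45 without vehicle replicate 2, 0.38 without glutamine replicate 1 and 0.20 without glutamine replicate 2. In the other direction it reached -3.29 without glutamine replicate 3 and -2.34 with limma-voom.

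**Figure D3:**
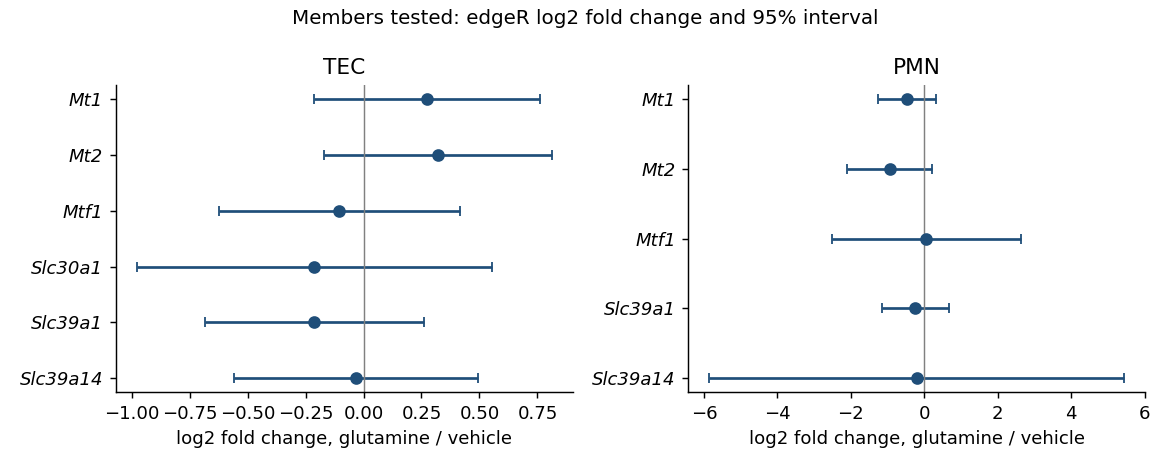
Log2 fold change of glutamine against vehicle from edgeR (horizontal axes, of different scale in the TEC and PMN panels) with 95% intervals (bars) for the members tested, 6 in TECs and 5 in PMN. Every interval includes 0, and the PMN interval of Slc39a14 runs from -5.86 to 5.45.

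The relation of Mt2 to Mt1 differed in level between the cell types. In TECs the count of Mt2 was 1.74, 1.59 and 1.47 times that of Mt1 in vehicle replicates 3, 4 and 5 and 1.41, 1.85 and 1.62 times in glutamine replicates 1, 2 and 3. In PMN it was 0.170, 0.328 and 0.257 times with vehicle and 0.184, 0.188 and 0.171 times with glutamine. Mt2 thus exceeded Mt1 in each TEC library and fell short of it in each PMN library, whereas within a cell type the treatment groups overlapped. The mean ratio in TECs was 1.599 ± 0.134 with vehicle and 1.63 ± 0.221 with glutamine (SD, n = 3). In PMN it was 0.252 ± 0.0794 and 0.181 ± 0.00913 (SD, n = 3). Cell types were not tested against each other, since their tables were made separately and the cells came from different tissues.

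**Figure D4:**
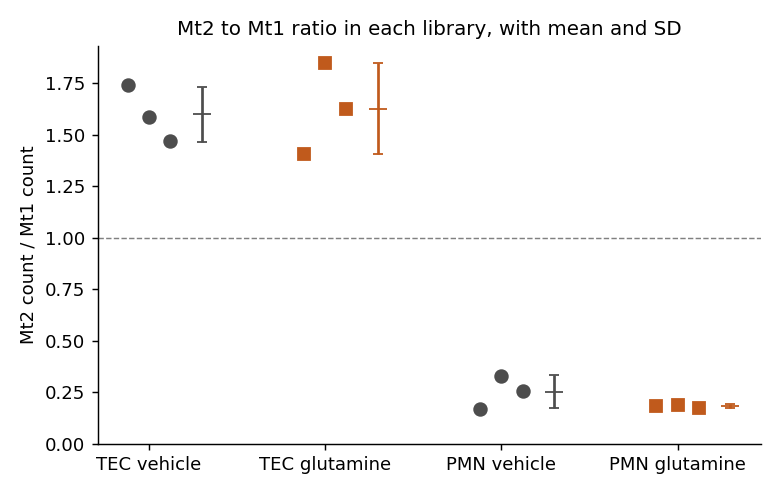
Count of Mt2 divided by count of Mt1 (vertical axis, a ratio starting at 0) in each library, by cell type and treatment, with bars for the mean and SD of 3 libraries and a dashed line where both counts are equal. TEC libraries lie between 1.41 and 1.85 and PMN libraries between 0.170 and 0.328.

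Levels of different members were compared per kilobase, using the median length of each gene's basic coding transcripts in GENCODE. In vehicle-treated TECs the order was Mt2 (13732 ± 2227 CPM per kilobase), Mt1 (6165 ± 1474), Slc39a1 (43.2 ± 6.02), Slc39a14 (16.7 ± 3.99), Slc30a1 (4.54 ± 1.35) and Mtf1 (3.77 ± 0.415; SD, n = 3). The libraries of neighbours in this order did not overlap, except those of Slc30a1 and Mtf1. With glutamine the order and this single overlap were the same. In vehicle-treated PMN the order was Mt1 (1769 ± 432 CPM per kilobase), Mt2 (632 ± 243), Slc39a1 (89.8 ± 30.8), Slc39a14 (6.72 ± 5.77), Mtf1 (4.20 ± 0.410) and Slc30a1 (0 in all libraries). Slc39a14 and Mtf1 overlapped in both PMN groups. Mtf1 therefore had a similar level in vehicle libraries of both cell types, at 3.77 and 4.20 CPM per kilobase. In the vehicle libraries the metallothioneins, Slc30a1 and Slc39a14 were at higher levels in TECs and Slc39a1 at a higher level in PMN. These cross-cell levels are set side by side without a test.

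Mt1 and Mt2 followed each other across libraries, but neither was the other's closest match. Likeness was measured as Pearson's r (with Spearman's rho) of log2 CPM over the 6 libraries of a cell type and is a description, since all values share the same libraries, scaling and treatment groups. In TECs r between Mt1 and Mt2 was 0.87 (rho 0.94), which put Mt2 at place 396 in the order of Mt1. The closest genes to Mt1 in TECs were H2-Q7 (r = 0.996, rho = 1), Baz1a (r = 0.990, rho = 0.94) and Mdn1 (r = 0.987, rho = 0.94). With only 6 libraries and 14734 genes, values near 1 are reached by many genes. In PMN r between Mt1 and Mt2 was 0.90 (rho 0.89, place 90), and the closest genes to Mt1 were Chd8 (r = 0.996, rho = 1), Bud23 (r = 0.989, rho = 1) and Atp5j2 (r = 0.982, rho = 0.94).

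The other members did not follow the metallothioneins. In TECs r of Mt1 was -0.12 with Mtf1 (rho -0.26), 0.01 with Slc30a1 (rho 0.20), -0.78 with Slc39a1 (rho -0.94) and -0.66 with Slc39a14 (rho -0.37). Mt2 and Slc39a1 ran opposite to each other, with r = -0.93 and rho = -0.89, while Mtf1 and Slc30a1 were alike at r = 0.78 and rho = 0.71. The single closest genes in TECs were Rere for Mt2, Trmt11 for Mtf1, Secisbp2l for Slc30a1, Zfp967 for Slc39a1 and Rhot2 for Slc39a14, with r of 0.987 to 0.9994. In PMN they were Ric1 for Mt2, Wdfy3 for Mtf1, Itgb1 for Slc39a1 and Smg6 for Slc39a14, with r of 0.986 to 0.993. The genes in places 2 to 5 for Slc39a1 in PMN, named after their values were seen, were Slco2a1, Arhgef15, Epas1 and Ramp2, which are known from endothelium. Their r was 0.98 to 0.99, and rho was 0.66 to 0.89. Slc39a1 was high in PMN vehicle replicate 2 alone, at 296 CPM against 164 to 184 CPM elsewhere. Whether the likeness holds without this library was not tested. Neither was an enrichment of endothelial genes in these places.

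The other genes of zinc handling were taken as 1 list, made of Mt3, Mt4 and the remaining Slc30 and Slc39 transporters. In TECs 14 of its 23 genes were tested, and 0 passed the adjusted threshold. Of the 14, 11 had a lower and 3 a higher estimate with glutamine, and their median log2 fold change was -0.39 against 0.01 over all genes tested. The groups did not overlap, with glutamine lower, for 6 of the 14 genes (9.81% of all genes tested) and, with glutamine higher, for 0 (9.01% of all). At an unadjusted p below 0.05, 3 genes were lower (5.51% of all) and 1 was higher (7.23% of all). The list was chosen with results of these data known, and its counts describe these libraries. With any single TEC library left out, 14 or 15 genes were tested and 9 to 11 of them had a lower estimate.

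**Figure D5:**
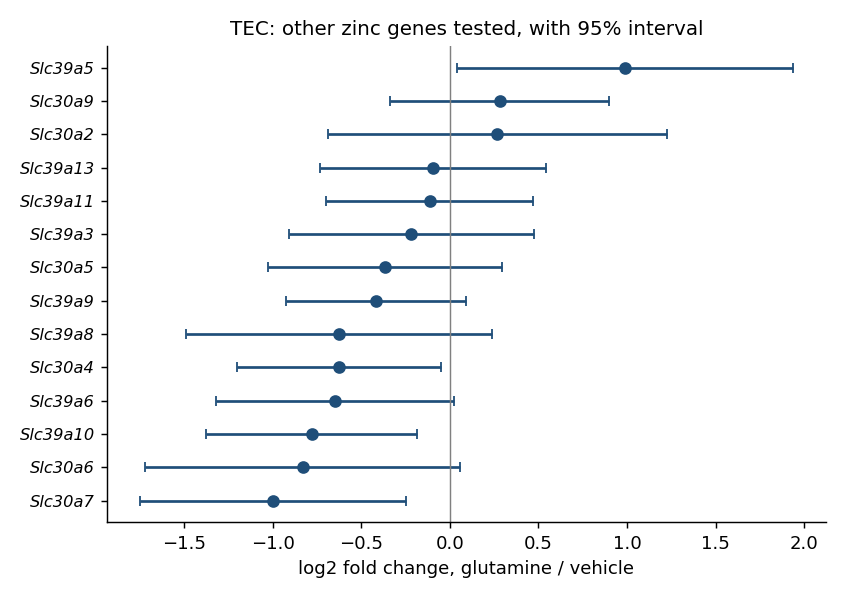
Log2 fold change of glutamine against vehicle in TECs from edgeR (horizontal axis) with 95% intervals (bars) for the 14 other zinc genes tested, in order of their estimate. Estimates are below 0 for 11 genes, and 4 intervals leave out 0 before adjustment for multiple tests, those of Slc30a7, Slc39a10, Slc30a4 and Slc39a5.

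Slc30a7, which loads zinc into the early secretory pathway, was at 14.01, 18.5 and 11.5 CPM with vehicle and at 9.25, 6.03 and 6.69 CPM with glutamine. Its groups did not overlap, and its log2 fold change was -0.998 ± 0.34 (edgeR adjusted p = 0.274). Slc39a10, an importer of the plasma membrane, was at 47.2, 37.4 and 25.1 CPM with vehicle and at 22.8, 21.3 and 19.7 CPM with glutamine. The glutamine libraries lay close together below a widely spread vehicle group, with a log2 fold change of -0.78 ± 0.27 (edgeR adjusted p = 0.282). Slc30a4, which moves zinc into vesicles, was at 22.7, 32.6 and 30.4 CPM with vehicle and at 17.4, 16.1 and 21.9 CPM with glutamine, where the highest glutamine value came close to the lowest vehicle value. Its log2 fold change was -0.62 ± 0.26 (edgeR adjusted p = 0.358).

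Slc39a5, an importer of the basolateral membrane, was at 13.7, 10.1 and 24.3 CPM with vehicle and at 28.7, 50.8 and 16.3 CPM with glutamine. Its groups overlapped, and the log2 fold change was 0.99 ± 0.43 (edgeR adjusted p = 0.375). It ranged from 0.49 without glutamine replicate 2 to 1.41 without vehicle replicate 5. Slc30a9, with the highest mean of the list in TECs, was at 33.2, 41.6 and 55.1 CPM with vehicle and at 64.5, 58.2 and 35.3 CPM with glutamine, with no separation of the groups (log2 fold change 0.28 ± 0.28, edgeR adjusted p = 0.699). With single libraries left out that estimate ranged from 0.11 (without glutamine replicate 1) to 0.50 (without glutamine replicate 3). Over the 11 other settings the adjusted p of these 5 genes ranged from 0.0931 to 0.950.

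The summed level of the other zinc genes in TECs overlapped between the groups, at 299 to 348 CPM with vehicle and 255 to 326 CPM with glutamine. Summed levels of some other lists parted by treatment in these libraries. The summed level of the injured proximal tubule list (Havcr1, Vcam1, Krt20, Sox9) was 1422 to 1853 CPM with vehicle and 1016 to 1297 CPM with glutamine. In PMN the same list summed to 245 to 410 CPM with vehicle and 151 to 644 CPM with glutamine. Of its 4 genes in TECs, 2 had a lower and 2 a higher estimate, with a median log2 fold change of -0.07. Without overlap of the groups 1 was lower (9.81% of all genes tested), and 1 was lower at an unadjusted p below 0.05 in edgeR (5.51% of all). Of the copper handling list 7 genes were in the table. Its sum was 441 to 508 CPM with vehicle and 352 to 416 CPM with glutamine. Of its 6 genes tested, 4 had a lower and 2 a higher estimate, with a median log2 fold change of -0.24. Without overlap of the groups 2 were lower (9.81% of all genes tested). At an unadjusted p below 0.05 in edgeR 1 was lower (5.51% of all). Ptprc, which encodes CD45, was at 0.102 to 1.52 CPM with vehicle and at 1.81 to 2.74 CPM with glutamine, without overlap (9.01% of all genes tested). It did not reach an unadjusted p below 0.05 in edgeR. Its values rest on few counts, since 3 counts are 0.293 to 0.556 CPM of the unscaled TEC libraries. Lists of genes that share inducers with the metallothioneins overlapped between the groups, since the glucocorticoid-induced list summed to 1190 to 2073 CPM with vehicle and 1310 to 2936 CPM with glutamine and the STAT3 acute phase list to 1325 to 4224 and 1817 to 2428 CPM. Of the 7 glucocorticoid-induced genes tested, 6 had a higher estimate with glutamine, with a median log2 fold change of 0.30, and 1 was higher without overlap (9.01% of all genes tested). Of the 9 STAT3 acute phase genes, 5 were higher and 4 lower by estimate, with a median of 0.08. Estimates were higher with glutamine for 7 of 9 proximal tubule, 4 of 4 thick ascending limb, 3 of 3 distal convoluted tubule and 3 of 4 collecting duct genes, with median log2 fold changes of 0.42, 0.14, 0.89 and 0.16. Of these, 3, 1, 2 and 0 genes were higher at an unadjusted p below 0.05 (7.23% of all genes tested), and the sums of all 4 lists overlapped. Neutrophil genes had a higher estimate for 5 of 6 tested and macrophage genes for 3 of 5, with medians of 0.59 and 0.69. Of these, 0 neutrophil genes and 1 macrophage gene were higher at an unadjusted p below 0.05 in edgeR (7.23% of all genes tested). Endothelial genes had a lower estimate for 3 of 4, with a median of -0.17, and the sums of each of these lists overlapped. Of the tested genes of each list, 0 passed the adjusted threshold. The part of any of these lists in the values of zinc genes was not tested.

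In PMN 9 of the 23 other zinc genes were tested, 5 with a lower and 4 with a higher estimate, a median log2 fold change of -0.35, and 0 past the adjusted threshold of edgeR. Without vehicle replicate 2 the median was 1.13 and 2 of 9 genes had a lower estimate. The median was also above 0 without glutamine replicate 1 (0.30) and without glutamine replicate 2 (0.29), so that its direction rests on single libraries. Groups did not overlap for 1 gene, higher with glutamine (5.87% of all genes tested), and for 0 genes lower (4.63%). At an unadjusted p below 0.05, 1 gene was higher (2.04% of all) and 0 were lower (1.37%). That gene was Slc30a5, which pairs with Slc30a6 to load zinc into enzymes of the secretory pathway. It was at 1.15, 1.14 and 9.32 CPM with vehicle and at 122, 30.3 and 52.5 CPM with glutamine. Its log2 fold change was 4.14 ± 1.46 (edgeR adjusted p = 0.99996), and DESeq2 gave it an adjusted p of 0.0354. With single libraries left out the estimate ran from 3.36 (without glutamine replicate 1) to 5.88 (without vehicle replicate 3). DESeq2 also called Slc39a10 (adjusted p = 0.0302), which was named after its values were seen. It was at 84.7, 5.84 and 0 CPM with vehicle and at 0, 0.0943 and 0.0502 CPM with glutamine, so that 1 vehicle library carried most of its counts. This was vehicle replicate 1, the library with the high thick ascending limb list, in which the distal convoluted tubule list was also at 227 CPM against 0 to 4.57 CPM elsewhere. The part of these tubule transcripts in the Slc39a10 value was not tested.

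Slc39a7, the importer that releases zinc from the endoplasmic reticulum, had the highest mean of the list in PMN. It was at 195, 176 and 212 CPM with vehicle and at 0, 111 and 247 CPM with glutamine, a spread that covers the vehicle group on both sides (log2 fold change -0.70 ± 1.79, edgeR adjusted p = 0.99996). That estimate was -0.14 without glutamine replicate 1, -1.79 without glutamine replicate 3 and -4.32 with limma-voom. In the 6 TEC libraries together the same gene had 42 counts, against 19485 counts in the deeper PMN libraries. Its mean was 0.225 CPM with vehicle and 1.70 CPM with glutamine in TECs, against 194 and 119 CPM in PMN. This contrast was not tested, since the tables were made separately. The summed level of the STAT3 acute phase list also parted by treatment in PMN, at 5677 to 6312 CPM with vehicle and 7650 to 8754 CPM with glutamine. Of its 8 genes tested, 0 passed the adjusted threshold, 7 had a higher and 1 a lower estimate, and 2 were higher without overlap (5.87% of all genes tested). The summed B cell list (Cd79a, Cd79b, Ms4a1) was 0.501 to 2.64 CPM with vehicle and 20.9 to 33.4 CPM with glutamine. Most of the glutamine sum came from Cd79b, with 0 counts in each vehicle library and 394 to 594 counts in the glutamine libraries, while Cd79a had 0 counts in each glutamine library. Of this list 2 genes were tested and 0 passed the adjusted threshold. Without overlap 1 was higher (5.87% of all genes tested), and 1 was higher at an unadjusted p below 0.05 in edgeR (2.04% of all). Ptprc was at 317 to 569 CPM with vehicle and at 754 to 1150 CPM with glutamine, and 5.87% of all genes tested were higher without overlap. It was higher at an unadjusted p below 0.05 in edgeR (2.04% of all) and did not pass the adjusted threshold. The summed stroma list, with 3 of 4 genes at 0 counts, was at 0.0476 to 9.52 CPM with vehicle and at 0 CPM with glutamine. The summed lists of Prom1 (the sort marker) with Epcam (an epithelial marker), and of distal convoluted tubule, collecting duct, monocyte, T cell, erythroid and platelet genes overlapped between the groups in both cell types. Within the TEC groups the erythroid list was highest in vehicle replicate 5 and glutamine replicate 2. The part of any marker list in the values of the zinc genes was not tested.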

How the data were processed

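RNA of sorted TECs and of blood neutrophils was reverse transcribed from the poly(A) tail and sequenced as single-end reads of 50 bases. Per the labels, the authors' processing notes name FastQC, MultiQC, Trim Galore 0.6.4, Salmon 1.0.0, DESeq2 and the build mm10, and the annotation is not given in the sources used here. For each cell type 1 table of estimated counts was deposited, given by gene symbol, not normalized and not always whole. The PMN table had passed through a spreadsheet program, so that other cell contents than plain estimated counts were deposited: superfluous points stood inside 3.20% of its numbers, and 0.391% appeared as dates, none of these in a member's row. Points other than the last were removed, and dates were converted to the numbers they stood for. This table had been planned as counts. It holds 2 columns per library, which correlated at 0.998, and their mean was used as 1 replicate. Estimated counts were rounded before testing.

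Glutamine was compared with vehicle separately in each cell type by edgeR 4.0.16 (R 4.3.3) with TMM scaling, its default expression filter, its quasi-likelihood test and Benjamini-Hochberg adjustment over all genes tested, at a threshold of 0.05. CPM are TMM-scaled. Log2 CPM for the likeness of genes used a prior count of 2. Standard errors came from the fold change and the F statistic, and intervals are at 95%. Alternatives were DESeq2 1.42.0, limma-voom (limma 3.58.1), other scalings, no filter, a threshold of 0.1, each library left out in turn and the first PMN column alone. The tests were tested on simulated data first. Replicate numbers of PMN follow accession order and only name libraries.

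The members and lists were chosen with earlier results of these data known. All members were named, from the other zinc genes those with an unadjusted p below 0.05 and the one with the highest mean CPM in each cell type, and the 3 genes most like Mt1 and the 1 most like each other member, without predicted genes. Symbols were matched to GENCODE M21 (GRCm38) for positions, transcripts and lengths, and upstream sequences from RefSeq (GRCm38.p6), which matched 5 of the 6 members. Counting intervals and limits cover counting error only. Of the marker genes, 1 is not reported here and was left out of its list.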

Additional observations from a re-analysis of the deposited data

How the results depend on the processing

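The count of members past the threshold was 0 in both cell types under each alternative tried. Over all TEC genes the count of 0 became 246 with DESeq2 and 425 without the expression filter, and it was between 0 and 36 with single libraries left out (4 without vehicle replicate 5, 36 without glutamine replicate 2). Over all PMN genes it became 309 with DESeq2 (2.80% of those with an adjusted p), among them 2 of the 11 other zinc genes with an adjusted p. The cause was not tested. Log2 fold changes of Mt1 and Mt2 kept their sign in both cell types under all alternatives, from 0.15 to 0.48 and 0.12 to 0.46 in TECs and from -0.72 to -0.24 and -1.24 to -0.68 in PMN. Signs turned for Slc30a1 in TECs (from -0.60 to 0.053 with libraries left out, above 0 without vehicle replicate 5 or glutamine replicate 1) and for Slc39a14 in TECs (from -0.19 to 0.15, above 0 without vehicle replicate 3). In PMN, Mtf1 turned to -0.0092 with RLE scaling, -0.016 with DESeq2, -0.29 with limma-voom and -0.0011 without the filter, and ranged from -0.72 to 0.41 with libraries left out. In PMN, Slc39a1 turned to 0.066 without vehicle replicate 2 (lowest value -0.42), and Slc39a14, from -3.29 to 0.45 with libraries left out, turned to 0.45 without vehicle replicate 2, 0.38 without glutamine replicate 1 and 0.20 without glutamine replicate 2. In a check chosen after seeing the data, the other zinc genes in PMN had a median log2 fold change from -0.44 to 1.13 with libraries left out, above 0 at 1.13 without vehicle replicate 2, 0.30 without glutamine replicate 1 and 0.29 without glutamine replicate 2. In TECs that median stayed between -0.42 and -0.22. No paired analysis was possible because replicate 3 is the single number that both TEC groups have in common and PMN libraries are not numbered in the labels. Slc30a1 in PMN, with 0 to 4 counts per library, entered the test only without the expression filter (adjusted p = 0.590).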
